A study of Mus musculus with 16 samples.

Results

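A set of 10 genes of embryonic skeletal muscle was followed through 16 RNA-sequencing libraries of mouse chondrocyte-enriched cells. The genes were taken by symbol (*Myod1*, *Myog*, *Myh3*, *Myh8*, *Acta1*, *Actc1*, *Tnnt1*, *Tnnt3*, *Ckm* and *Des*) and are 10 of the 55414 genes counted. They were chosen with earlier results of these data known. All 10 had at least 10 counts over the 8 libraries of each comparison and so passed the filter on low counts. The cells came from the epiphyses of 3- to 4-day-old mice, either heterozygous for Notch2tm1.1Ecan or wild type from the same litters, with males and females pooled. The mutant allele is in the germline of every cell, carries a stop codon before the PEST domain and gives a NOTCH2 protein that escapes degradation. Cultures of both genotypes were given the cytokine TNFα (50 ng/ml) or its vehicle, PBS, and the exposure lasted 6 h. This gave 4 groups of 4 libraries, called Wild type, Vehicle; Notch2 mutant, Vehicle; Wild type, TNF alpha; and Notch2 mutant, TNF alpha. The labels call the libraries of a group biological replicates. They name serum removal for the TNFα cultures alone, whereas the description of this experiment in the study has both vehicle and TNFα cultures without serum. Whether the vehicle cultures held serum was not settled here.

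Skeletal muscle forms when myoblasts leave the cell cycle and fuse into multinucleated fibers. The basic helix-loop-helix factors MYOD1 and myogenin bind E boxes in DNA and switch on the genes of the contractile apparatus. The first fibers use embryonic and perinatal myosins, cardiac α-actin beside skeletal α-actin, and both slow and fast troponins, and these are exchanged for adult forms after birth. In bulk RNA, fewer muscle cells and less muscle RNA per cell cannot be told apart.

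Between 3439726 and 44237300 counts per library fell on genes (median 17062419), and the shallowest library was replicate 4 of the Notch2 mutant, TNF alpha group, where 3 counts correspond to 0.828 CPM, the number of counts in a library scaled to 1000000. Levels below are CPM on library sizes adjusted by the trimmed mean of M values. Replicate 4 of the Wild type, Vehicle group stood apart from the other vehicle libraries: on the first principal component (68.7% of the variance) it lay at 18.3 where the 7 others lay between 51.9 and 54.4, and its *Icam1*, a gene induced by TNFα, was at 439 CPM against 26.9 to 40.4 CPM. Replicate 4 of the Wild type, TNF alpha group was likewise shifted toward the vehicle side, at -37.0 against -52.8 to -48.7 in the other TNFα libraries. Where leaving them out changed a call or moved a called value by over 1.5-fold for a gene described below, the value without them is given. Notch2 itself averaged 130 CPM in Wild type and 152 CPM in Notch2 mutant cells with vehicle, which did not pass the test (log2 difference 0.23, SE 0.11, adjusted p = 0.283). With TNFα it averaged 156 and 223 CPM (log2 difference 0.53, adjusted p = 0.0178, or 0.0567 and 0.108 when replicate 3 or 4 of the mutant group was left out and 0.164 without replicate 4 of both groups). From vehicle to TNFα Notch2 rose in mutant cells (log2 change 0.55, without overlap) and did not pass in Wild type (0.27). The study's qRT-PCR on cells of these genotypes found no effect of TNFα on Notch2. The mutation is a premature stop codon, so the Notch2 level does not check the genotype labels. All 11 chondrocyte markers were detected, at a summed 18530 to 49860 CPM per library.

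The 10 muscle genes together were a minor component of every library, and their sum followed genotype and treatment. It was 30.9, 26.3, 30.7 and 32.2 CPM in the 4 Wild type, Vehicle libraries and 49.7, 43.0, 47.0 and 51.7 CPM in the Notch2 mutant, Vehicle libraries, in replicate order. With TNFα it was 13.7, 19.3, 10.4 and 21.4 CPM in Wild type and 32.2, 23.0, 26.6 and 45.8 CPM in Notch2 mutant cells. Within each treatment every mutant library was above every wild-type library. The 4 Wild type, TNF alpha libraries lay below the 4 with vehicle, while in the mutant replicate 4 with TNFα lay inside the vehicle range. Its exact Poisson 95% interval, which covers counting error alone, ran from 39.1 to 53.3 CPM, the widest of the 16. *Acta1* was the largest part of the sum with vehicle, at 13.0 to 16.5 CPM in Wild type and 19.2 to 21.2 CPM in mutant libraries. With TNFα it gave 3.50 to 8.78 and 6.67 to 14.1 CPM, so the fall of the sum reflects this gene most.

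**Figure D1:**
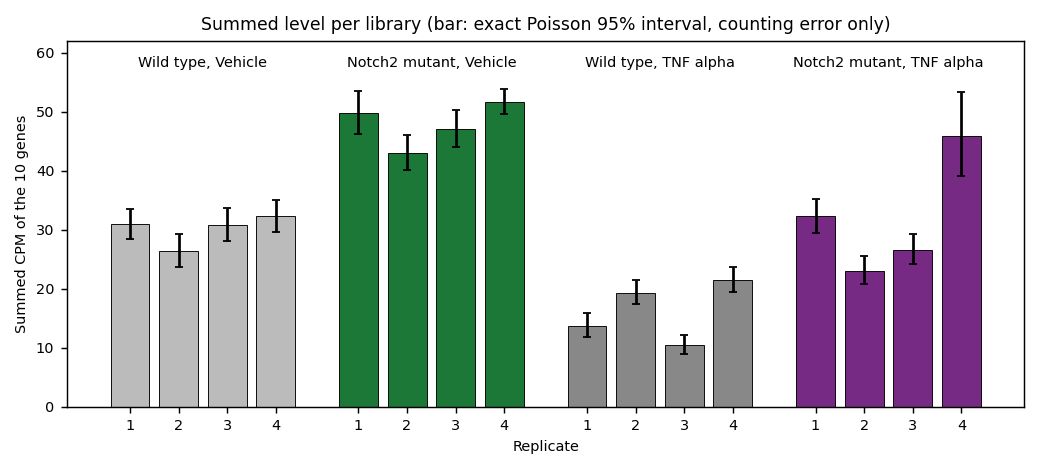
Summed CPM of the 10 muscle genes (y axis) in each of the 16 libraries (x axis, replicate number within group), with exact Poisson 95% intervals for counting error. Wild type, Vehicle bars sit between 26.3 and 32.2 CPM and Notch2 mutant, Vehicle bars between 43.0 and 51.7 CPM, while TNFα bars run from 10.4 to 21.4 CPM in Wild type and from 23.0 to 45.8 CPM in Notch2 mutant cells. *Acta1* is the largest part of each vehicle bar.

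Divided by the union of a gene's annotated exons, *Acta1* was the most abundant of the 10 in Wild type, Vehicle cells, at 3.98 ± 0.468 CPM per kilobase (SD, n = 4). *Des* followed at 0.752 ± 0.217, *Tnnt3* at 0.680 ± 0.0728 and *Myh3* at 0.561 ± 0.0803 CPM per kilobase, and these 3 neighbours overlapped between libraries. *Tnnt1* (0.384 CPM per kilobase), *Myog* (0.290), *Myod1* (0.244), *Myh8* (0.177) and *Actc1* (0.104) came next, each overlapping its neighbour in the order. *Ckm* was last at 0.00796 CPM per kilobase, below every *Actc1* library. The first and last places and that of *Actc1* were kept with the longest or the canonical transcript as the length, but *Tnnt3* then took place 2, *Tnnt1* place 4 and *Myh8* place 6. The order of levels per length therefore depends on the gene model below *Acta1*.

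Sequences around the start sites are shown because MYOD1 and myogenin act through E boxes. All sequences and positions are from GRCm39 with GENCODE M39 start sites (canonical transcript), printed 5′ to 3′ on the gene's own strand, with the motif matches in capitals. The first is the 250 bases before the start of *Myh3* (chr11:66968876-66969125, plus strand), whose 1 match is the TATA box TATAAA, 29 bases before the start.
Myh3: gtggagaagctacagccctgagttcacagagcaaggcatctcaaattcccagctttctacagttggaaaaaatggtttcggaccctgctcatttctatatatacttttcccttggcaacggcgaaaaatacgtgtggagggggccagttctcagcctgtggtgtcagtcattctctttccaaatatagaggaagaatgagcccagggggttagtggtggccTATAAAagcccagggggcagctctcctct
The next are 30-base stretches holding the E box CAGCTG before the start, the letters shared by the members that have it, in *Myod1* (chr7:46025700-46025729, plus strand), *Acta1* (chr8:124621718-124621747, minus strand), *Tnnt3* (chr7:142052340-142052369, plus strand) and *Ckm* (chr7:19144758-19144787, plus strand). *Ckm* held a further match 248 bases before its start.
Myod1: ttcctagctaggCAGCTGccccagcacaga
Acta1: gggaggggcagaCAGCTGgggatactctcc
Tnnt3: aggtaaaaatagCAGCTGacacctttctgg
Ckm: ccggcgaagggcCAGCTGtcccccgccagc
The last are the sites for partner factors, the CArG box of *Acta1* (chr8:124621890-124621919, minus strand) and the MEF2 site of *Myh8* (chr11:67167841-67167870, plus strand), which overlaps a TATAAA read from the other strand.
Acta1: agttaagaacCCATAAATGGggtgcattgt
Myh8: ccttgtcaaaTTATTTATAGgagattggtt
Over the window from 250 bases before to 50 after the start, 5 of the 10 genes held CAGCTG (*Myod1*, *Acta1*, *Tnnt3*, *Ckm* and *Des*) against 14.9% of 21757 protein-coding promoters. CACCTG, read on either strand, was found in 2 of 10 (20.6% of promoters), TATAAA in 3 of 10 (13.2%), the CArG box in 1 of 10 (1.54%) and the MEF2 site in 1 of 10 (2.96%). *Des* had its CAGCTG after the start. *Myog* and *Actc1* had no match to any of these motifs in this window. Other spellings of the E box and looser forms of the MEF2 site were not searched, so a lack of such sites is not shown.

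The comparison of genotypes with vehicle asks whether the mutant cultures differ before TNFα. 5 of the 10 muscle genes rose in Notch2 mutant cells and none fell, in the quasi-likelihood test of edgeR over 19432 genes (adjusted p under 0.05 after Benjamini-Hochberg correction). They were *Myh3*, *Myh8*, *Acta1*, *Actc1* and *Des*, by 1.39- to 3.58-fold, and in each of the 5 the genotypes did not overlap. Of all genes tested, 6.19% rose, 4.35% fell and 8.63% were higher without overlap, so that 5 of 10 was above that share. Because the set was chosen with earlier results of these data known, this is a description and not independent support. The median log2 difference of the 10 was 0.671, where that of all genes tested was -0.002.

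Among the regulators, neither factor passed the test with vehicle. *Myod1* (chr7:46025870-46028526) encodes the factor that commits cells to myogenesis. It stood at 0.774, 0.381, 0.450 and 0.238 CPM in the Wild type, Vehicle libraries and at 0.207, 0.410, 0.415 and 0.736 CPM in the Notch2 mutant, Vehicle libraries, which overlapped. Its log2 difference was 0.04 (SE 0.45, adjusted p = 0.976), and these values rest on 3 to 32 counts per library. *Myog* (chr1:134217707-134220287), which drives differentiation of committed myoblasts, averaged 0.440 ± 0.0664 CPM in Wild type and 0.614 ± 0.205 CPM in Notch2 mutant cells (SD, n = 4; adjusted p = 0.595).

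Both developmental myosins were about doubled. *Myh3* (chr11:66969126-66993117), the embryonic heavy chain, was at 3.98, 3.05, 3.47 and 4.23 CPM in Wild type and at 7.92, 5.95, 7.11 and 8.40 CPM in Notch2 mutant cells. All 4 mutant libraries were above all 4 wild-type libraries (log2 difference 1.00, SE 0.15, adjusted p = 5.65e-05). *Myh8* (chr11:67167746-67199462), the perinatal heavy chain, was at 2.27, 1.45, 1.93 and 2.98 CPM in Wild type and at 4.06, 4.00, 4.82 and 5.02 CPM in mutant cells, again without overlap (log2 difference 1.05, SE 0.20, adjusted p = 0.000639). The myosin genes lie in 1 cluster and resemble each other: 12.9% of the 75-base stretches of the *Myh8* transcript also occur in a related transcript and 1.86% of those of *Myh3*, so reads from those stretches could be placed on several genes.

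The actins rose as well, by unequal amounts. *Acta1* (chr8:124618501-124623661), the skeletal α-actin of the thin filament, was at 15.97, 13.0, 16.5 and 13.6 CPM in Wild type and at 20.9, 19.2, 20.5 and 21.2 CPM in Notch2 mutant cells. The groups did not overlap, and the fold was 1.39 (log2 difference 0.47, SE 0.09, adjusted p = 0.000685). *Actc1* (chr2:113876266-113884043), the cardiac α-actin that fetal skeletal muscle also uses, was at 0.718, 0.761, 0.515 and 0.417 CPM in Wild type and at 1.79, 1.80, 2.44 and 2.46 CPM in mutant cells. Its 3.58-fold difference was the largest of the 5 (log2 difference 1.84, SE 0.27, adjusted p = 4.01e-05). For comparison, the cardiac markers *Myh6* and *Myl7* had no count in any of the 16 libraries. The 7 cardiac markers summed to 0.257 to 0.643 CPM per library with vehicle and to 0.276 to 1.70 CPM with TNFα. From vehicle to TNFα 1 of 3 tested cardiac markers rose in Wild type, where 23.3% of all genes rose.

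The troponins and creatine kinase did not pass. *Tnnt1* (chr7:4507567-4519381), the slow troponin T that anchors the calcium switch of slow fibers, averaged 0.914 ± 0.366 CPM in Wild type and 1.18 ± 0.186 CPM in mutant cells (SD, n = 4; adjusted p = 0.563). *Tnnt3* (chr7:142048605-142070280), its fast counterpart, was at 3.43, 2.82, 2.77 and 3.27 CPM in Wild type and at 5.10, 3.64, 3.42 and 3.64 CPM in mutant cells (log2 difference 0.35, SE 0.18, adjusted p = 0.262). The highest Wild type library lay just above the lowest mutant library. *Ckm* (chr7:19138701-19157965), the muscle creatine kinase of differentiated fibers, had 0, 1, 0 and 4 counts in the Wild type, Vehicle libraries and 1, 6, 5 and 19 in the mutant libraries, and its log2 difference of 1.81 did not pass (SE 0.83, adjusted p = 0.199). Without replicate 4 of the Wild type, Vehicle group the log2 difference of *Ckm* was 3.44 (adjusted p = 0.0444), and without replicate 4 of both groups 2.98 (0.164).

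*Des* (chr1:75320511-75345223), the intermediate filament protein desmin that ties sarcomeres together and is also made by smooth muscle, was at 2.76, 3.50, 3.796 and 5.42 CPM in Wild type and at 7.37, 6.00, 6.54 and 8.12 CPM in mutant cells. The groups did not overlap (log2 difference 0.87, SE 0.18, adjusted p = 0.00154), and the highest wild-type value came from the replicate 4 that stood apart. The 5 calls were kept when any 1 of the 8 libraries was left out, with a highest adjusted p of 0.0167 for *Des*. In a fit of all 16 libraries, which share 1 estimate of the spread, *Myh3* (adjusted p = 0.0629) and *Acta1* (adjusted p = 0.208) did not pass.

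**Figure D2:**
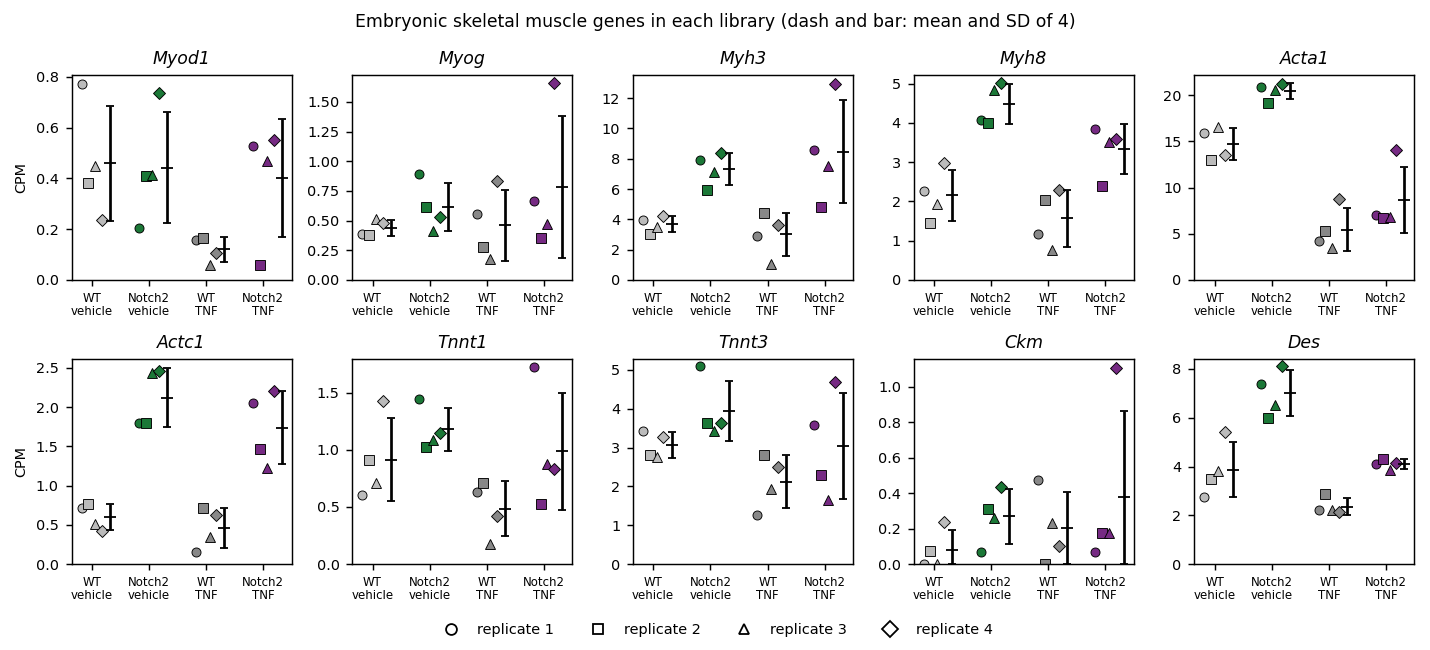
CPM (y axis, from 0, 1 scale per gene) of each muscle gene in the 4 libraries of each group (x axis; marker shape is the replicate number), with the mean and SD of 4 beside them. *Myh3*, *Myh8*, *Actc1* and *Des* separate Notch2 mutant from Wild type libraries under both treatments, *Acta1* separates them with vehicle and is lower with TNFα, and *Myod1*, *Myog*, *Tnnt1* and *Ckm* overlap between genotypes.

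The same comparison in the presence of TNFα asks whether the genotypes differ during the inflammatory response. 3 of the 10 genes rose in Notch2 mutant, TNF alpha cells, *Myh8*, *Actc1* and *Des*, and none fell, over 19227 genes tested. Of all genes, 5.63% rose, 4.31% fell and 6.84% were higher without overlap. The study's own list of genes that differed between genotypes with TNFα already held *Myh3*, *Myh8* and *Actc1*, so these shares are descriptions. *Myh3* was also higher without overlap but did not pass the test. The median log2 difference of the 10 was 0.92, and that of all genes -0.012.

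*Myh8* was at 1.18, 2.03, 0.758 and 2.30 CPM in the Wild type, TNF alpha libraries and at 3.84, 2.40, 3.51 and 3.59 CPM in the Notch2 mutant, TNF alpha libraries. The groups were parted by a small gap (log2 difference 1.04, SE 0.28, adjusted p = 0.0141), and the call was lost without replicate 3 of the wild type (adjusted p = 0.0631) or replicate 1 (0.0784) or 3 (0.0685) of the mutant. *Myh3* was at 2.92, 4.44, 1.05 and 3.61 CPM in Wild type and at 8.60, 4.79, 7.54 and 13.0 CPM in mutant cells. Its log2 difference of 1.36 was the larger of the pair, but the libraries varied within both groups far beyond counting error, with chi-squares per degree of freedom of 12 and 11.4 (SE 0.44, adjusted p = 0.123). *Myh3* passed without replicate 3 of the Wild type, TNF alpha group (adjusted p = 0.0233), with DESeq2 (0.0261) and in the fit of all 16 libraries (0.0196).

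*Actc1* was at 0.158, 0.713, 0.350 and 0.627 CPM in Wild type and at 2.05, 1.46, 1.23 and 2.21 CPM in mutant cells with TNFα, without overlap. Its fold of 3.39 was the largest of the 3 that passed (log2 difference 1.76, SE 0.38, adjusted p = 0.0023). *Des* was at 2.21, 2.85, 2.21 and 2.14 CPM in Wild type and at 4.10, 4.33, 3.86 and 4.14 CPM in mutant cells, without overlap (log2 difference 0.80, SE 0.19, adjusted p = 0.00551). Both calls were kept when any 1 library was left out.

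*Acta1* was at 4.18, 5.32, 3.50 and 8.78 CPM in Wild type and at 7.08, 6.67, 6.84 and 14.1 CPM in mutant cells with TNFα. Replicate 4 was the highest library of both groups, and the wild-type one lay above 3 of the 4 mutant libraries (log2 difference 0.49, SE 0.35, adjusted p = 0.492). Without replicate 4 of the Wild type, TNF alpha group the log2 difference was 0.82 and passed (adjusted p = 0.0275), as it did without replicate 4 of both groups (0.0096).

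The remaining 5 genes did not pass and overlapped between genotypes with TNFα. *Myod1* had 3 or fewer counts in every Wild type, TNF alpha library and 8, 1, 8 and 2 counts in the mutant libraries (adjusted p = 0.212). The mean of the mutant libraries was 2.19-fold the level of 3 counts per Wild type library, but rests on these few counts. *Tnnt1* averaged 0.484 ± 0.241 CPM in Wild type and 0.988 ± 0.513 CPM in mutant cells (adjusted p = 0.161), and *Tnnt3* averaged 2.12 ± 0.680 and 3.05 ± 1.36 CPM (SD, n = 4; adjusted p = 0.558), both from the edgeR fit. *Myog* (adjusted p = 0.734) and *Ckm* (adjusted p = 0.889) rested on 16 counts or fewer per library.

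**Figure D3:**
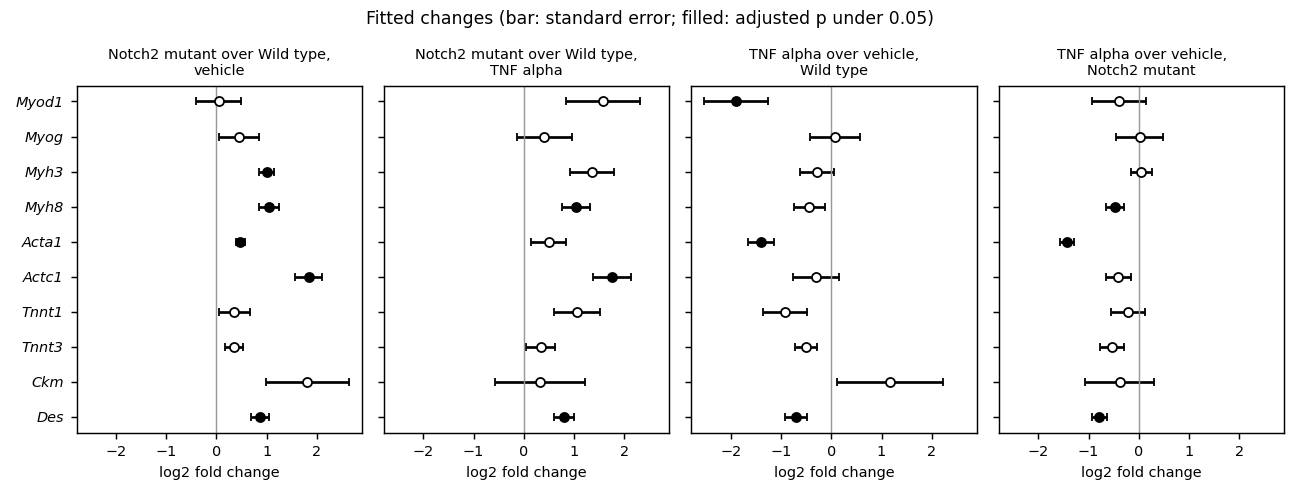
Log2 fold change (x axis) of each muscle gene (y axis) in the 4 comparisons of 8 libraries, with standard errors; filled points have an adjusted p under 0.05. *Actc1* has the largest called difference between genotypes, 1.84 with vehicle and 1.76 with TNFα, and *Acta1* falls by 1.41 and 1.43 with TNFα.

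TNFα was compared with vehicle within each genotype to ask how the cytokine acted on these genes. In Wild type cells 3 of the 10 fell, *Acta1*, *Des* and *Myod1*, and none rose, over 19338 genes of which 20.9% fell, 23.3% rose and 20.2% were lower without overlap. In Notch2 mutant cells *Acta1*, *Des* and *Myh8* fell and none rose, over 19633 genes of which 21.9% fell, 22.6% rose and 20.4% were lower without overlap. A count of 3 of 10 is therefore near the share of all genes that fell. The median log2 change of the 10 was -0.469 in Wild type and -0.40 in Notch2 mutant cells, beside 0.039 and 0.026 over all genes. These comparisons share their libraries with those between genotypes.

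*Acta1* fell in both genotypes. In Wild type cells it went from 13.0 to 16.5 CPM with vehicle to 3.50 to 8.78 CPM with TNFα, and in mutant cells from 19.2 to 21.2 CPM to 6.67 to 14.1 CPM, with no overlap in either genotype. The fold was 2.65 lower in Wild type (log2 change -1.41, SE 0.26, adjusted p = 0.00241) and 2.69 lower in the mutant (log2 change -1.43, SE 0.14, adjusted p = 2.84e-08). Leaving out any 1 library kept both calls, with a highest adjusted p of 0.0144.

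*Des* fell 1.63-fold in Wild type (log2 change -0.71, SE 0.22, adjusted p = 0.0101), with 1 TNFα library at 2.85 CPM inside the vehicle range, and 1.72-fold in mutant cells (log2 change -0.78, SE 0.15, adjusted p = 8.19e-05) without overlap. The wild-type call was lost without replicate 4 of the Wild type, Vehicle group (adjusted p = 0.0578), the library that stood apart, and without both wild-type libraries numbered 4 (0.11).

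*Myod1* had 14, 5, 7 and 4 counts in the Wild type, Vehicle libraries and 2, 3, 1 and 2 with TNFα. Its level with TNFα was at least 2.51-fold lower, measured against the level of 3 counts per library (adjusted p = 0.0187), and the call was lost without replicate 1 of the vehicle group (0.0963) or replicate 3 of the TNFα group (0.055). In Notch2 mutant cells *Myod1* had 3 to 32 counts with vehicle and 1 to 8 with TNFα, and did not pass (adjusted p = 0.594).

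Of the developmental myosins, *Myh8* alone passed with TNFα, in the mutant. *Myh3* in mutant cells averaged 7.34 ± 1.07 CPM with vehicle and 8.48 ± 3.40 CPM with TNFα (SD, n = 4; log2 change 0.05, SE 0.21, adjusted p = 0.887 by edgeR). In Wild type it averaged 3.68 ± 0.526 and 3.00 ± 1.44 CPM (adjusted p = 0.557). *Myh8* fell in mutant cells by 0.47 on the log2 scale (SE 0.18, adjusted p = 0.0369) without overlap. That call was lost when replicate 3 (adjusted p = 0.0791) or 4 (0.135) with vehicle or replicate 2 (0.213) or 3 (0.0519) with TNFα was left out, and with DESeq2 (0.0664). In Wild type its log2 change was -0.44 (SE 0.31, adjusted p = 0.279).

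*Actc1* did not pass in either genotype, at log2 changes of -0.30 (SE 0.45, adjusted p = 0.633) in Wild type and -0.40 (SE 0.25, adjusted p = 0.201) in mutant cells. *Tnnt3* was near the threshold in both, at -0.50 (SE 0.22, adjusted p = 0.0739) and -0.53 (SE 0.24, adjusted p = 0.0773), and passed in Wild type without replicate 2 with TNFα (0.0336) and in the mutant without replicate 1 (0.0315) or 4 (0.0223) with TNFα. *Tnnt1* had a log2 change of -0.92 in Wild type (SE 0.43, adjusted p = 0.0936) and -0.21 in mutant cells (SE 0.34, adjusted p = 0.659). *Myog* and *Ckm* had adjusted p of 0.404 to 0.983 in both genotypes.

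Whether TNFα acted differently in the 2 genotypes was tested by the interaction term over all 16 libraries. None of the 10 passed with edgeR, none had an unadjusted p under 0.05 and none passed with DESeq2, where 0.474% of 21321 genes passed with edgeR. The smallest unadjusted p was 0.0784, for *Myod1* (log2 difference of the changes 1.52, SE 0.84, adjusted p = 0.651). For *Acta1* the difference of the changes was -0.01 (SE 0.34) and for *Des* -0.07 (SE 0.26). For *Myh8* it was -0.02 (SE 0.36), so the fall seen by the test in mutant cells alone was not shown to differ from Wild type.

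Wider lists of muscle genes were examined in the same fits. With vehicle, 8 of 30 sarcomere genes rose in Notch2 mutant cells and none fell, with a median log2 difference of 0.587, where 6.19% of all genes rose. *Actn2*, the α-actinin of the Z disc, rose from 0.414 to 1.68 CPM (log2 difference 2.01, SE 0.32, adjusted p = 9.4e-05), and *Ttn*, the giant protein that spans the sarcomere from Z disc to M band as a molecular spring, from 0.701 to 2.02 CPM (log2 difference 1.55, SE 0.42, adjusted p = 0.0336). The remaining 6 were *Neb*, *Mybpc1*, *Tnni1*, *Myom1*, *Mylpf* and *Myl1*, named here after their values were seen. 1 of 13 genes of excitation-contraction coupling and the acetylcholine receptor rose, the calcium pump *Atp2a1* (1.15 to 2.42 CPM, log2 difference 1.05, adjusted p = 0.0448), a share near that of all genes. 1 of 5 tested genes of energy metabolism rose, myoglobin *Mb* (0.784 to 1.49 CPM, log2 difference 0.91, adjusted p = 0.0379). *Mb* did not pass with DESeq2 (0.057), the replicate block (0.0612) or in the fit of all 16 libraries (0.078), and DESeq2 called no gene of that list higher and 1 lower.

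Of these, *Actn2*, *Tnni1* and *Myom1* kept their calls when any 1 library was left out, and *Neb*, *Mybpc1* and *Myl1* in 4 of 8 such fits and *Mylpf* in 2. *Ttn* kept its call in 2 of 8 such fits, *Mb* in 2 and *Atp2a1* in 1, with adjusted p up to 0.11, 0.122 and 0.143. The *Atp2a1* call was kept without replicate 4 of the Wild type, Vehicle group alone, and those of *Ttn* and *Mb* without that library or without replicate 1 of the Notch2 mutant, Vehicle group. Without the wild-type replicate 4 the log2 difference of *Ttn* was 2.27 (adjusted p = 0.000154), and without replicate 4 of both groups *Myl1* did not pass (0.178). The wild-type replicate 4 had the highest *Ttn* (1.49 CPM), *Neb* (2.80 CPM) and *Atp2a1* (2.08 CPM) of its group.

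With TNFα, 2 of 29 sarcomere genes rose in the mutant and 1 fell, near the 5.63% and 4.31% of all genes. *Neb*, the ruler of the thin filament, stood at 0.867 CPM in Wild type and 3.27 CPM in mutant cells (log2 difference 1.80, SE 0.32, adjusted p = 0.000192), and fast troponin C, *Tnnc2*, at 0.388 and 1.09 CPM (log2 difference 1.57, SE 0.45, adjusted p = 0.023). *Tnnc2* kept its call in 4 of 8 fits without 1 library and lost it without replicate 4 of the Wild type, TNF alpha group (adjusted p = 0.0796) or of both groups (0.0609). *Myom2*, an M-band protein, was the gene that was lower in the mutant, 6.68 against 10.8 CPM (adjusted p = 0.000578, and 0.138 in the fit of all 16 libraries). The median log2 difference of the sarcomere list was 0.386. None of 12 coupling or of 6 metabolism genes passed, though 6 and 3 of them had an unadjusted p under 0.05, and DESeq2 called 1 coupling gene.

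Within genotypes, 3 of 28 sarcomere genes rose with TNFα and 5 fell in Wild type, where 23.3% of all genes rose and 20.9% fell. In the mutant 3 of 30 rose and 7 fell, where 22.6% and 21.9% of all genes did. The shares that rose were thus below those of all genes and the shares that fell were near them. *Myom2* rose 7.43-fold in Wild type (1.41 to 10.8 CPM, adjusted p = 8.11e-05) and 5.02-fold in mutant cells (adjusted p = 1.17e-08), while its relative *Myom1*, named in both genotypes for contrast, fell 3.66-fold (24.8 to 6.64 CPM, adjusted p = 1.53e-06) and 5.66-fold (46.5 to 8.01 CPM, adjusted p = 5.5e-18). Without replicate 4 of the Wild type, Vehicle group, which had 2.98 CPM where the other 3 had 0.772 to 0.995 CPM, the log2 change of *Myom2* in Wild type was 3.57 in place of 2.89, and without both wild-type libraries numbered 4 it was 3.63. *Mybpc2*, which encodes fast myosin-binding protein C, was at 3 or fewer counts in every vehicle library of both genotypes. With TNFα its mean was 2.54-fold the level of 3 counts per vehicle library in Wild type and 1.23-fold that level in the mutant. The TNFα libraries had 8, 4, 8 and 12 counts in Wild type and 2, 4, 6 and 0 in the mutant. The vehicle libraries had 2, 0, 3 and 3 counts in Wild type and 0, 0, 0 and 3 in the mutant. *Mybpc2* thus reached the filter of 10 summed counts only through the TNFα libraries, where it was higher. Its calls are not independent of that filter, and it is among the risen sarcomere genes counted above. *Mybpc2* passed as higher in both with edgeR (adjusted p = 0.0236 and 0.0244), but not in the mutant with DESeq2 (0.0859). Those calls were kept in 4 of 8 and 4 of 7 fits without 1 library, and that in Wild type was lost without replicate 4 with TNFα (adjusted p = 0.0679) or both wild-type libraries numbered 4 (0.057).

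With TNFα 1 of 12 tested genes of coupling fell in Wild type and 1 of 13 in the mutant, and none rose. These shares were below the 20.9% and 21.9% of all genes that fell. The gene was *Cav3*, the caveolin of the muscle membrane. It fell 3.26-fold in Wild type (7.45 to 2.22 CPM, adjusted p = 5.58e-08) and 4.48-fold in mutant cells (6.23 to 1.47 CPM, adjusted p = 4.89e-10). Of the tested metabolism genes 2 of 5 and 2 of 6 fell and none rose. Among metabolism genes, muscle phosphoglycerate mutase *Pgam2* fell 5.01-fold and 2.94-fold (adjusted p = 0.00011 and 0.000528) and β-enolase *Eno3* fell 1.78-fold and 2.1-fold (adjusted p = 1.19e-05 and 7.31e-06). These 3 calls were kept without any 1 library in both genotypes. With vehicle their levels did not pass between genotypes (adjusted p of 0.155 to 0.382).

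The precursor and fusion genes were close to the detection limit. Of 8 genes, *Pax3*, *Pax7* and *Myf5*, which mark muscle progenitors, reached at most 0.152, 0.0662 and 0.0230 CPM in any library, and *Myf6* and *Mymx* at most 0.276 and 0.394 CPM. The 3 that were tested in every comparison, the fusogen *Mymk*, M-cadherin *Cdh15* and *Smyd1*, did not pass in any with edgeR or DESeq2. Only *Mymk* in Wild type had an unadjusted p under 0.05 in the 4 comparisons of 8 libraries, with 0.546 CPM with vehicle and 0.986 CPM with TNFα (adjusted p = 0.0641). No wider muscle list had a gene past the interaction test with edgeR or DESeq2. At an unadjusted p under 0.05 there were 3 of 30 sarcomere genes and 1 of 4 fusion genes.

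**Figure D4:**
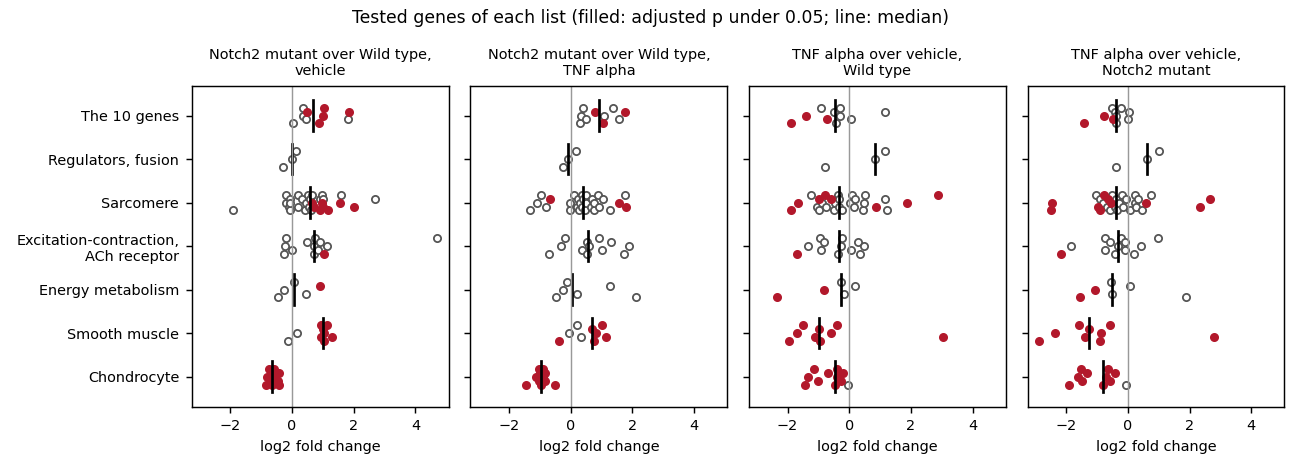
Log2 fold change (x axis) of every tested gene of each list (y axis) in the 4 comparisons; filled points have an adjusted p under 0.05 and the line is the list's median. The 10 muscle genes and the sarcomere list lie mostly above 0 between genotypes, with medians of 0.671 and 0.587 with vehicle, while smooth muscle genes rise and chondrocyte markers fall in the mutant.

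Markers of other cell types were examined in the same contrasts. Of all genes tested, 6.19% rose and 4.35% fell in the mutant with vehicle, and 5.63% and 4.31% with TNFα. From vehicle to TNFα 23.3% rose and 20.9% fell in Wild type, and 22.6% and 21.9% in the mutant. Some markers, such as *Acta2*, *Adgre1* and *Matn1*, are in the study's own list for the genotypes with TNFα. The counts below are therefore descriptions. Of 9 smooth muscle markers 7 rose in the mutant with vehicle and 5 rose and 1 fell with TNFα, and 8 fell and 1 rose with TNFα in each genotype. Their sum was 2097 to 2385 CPM in Wild type, Vehicle, 4031 to 4647 CPM in Notch2 mutant, Vehicle, 1221 to 1457 CPM in Wild type, TNF alpha and 2129 to 2443 CPM in Notch2 mutant, TNF alpha libraries. Per kilobase of union exon, *Acta2*, the smooth muscle actin, was at 444 CPM in Wild type, Vehicle cells, where *Acta1* was at 3.98. Its log2 difference between genotypes was 0.94 with vehicle and 1.01 with TNFα, and its log2 change with TNFα was -0.96 in Wild type and -0.91 in mutant cells, all past the test. Of the 75-base stretches of the *Acta1* transcript 0.191% occurred in a related transcript, that of *Actb*, and none in a transcript of *Acta2*. Only exact matches were counted, and the study trimmed its reads. Shorter or mismatched reads are not covered, so this share cannot show that *Acta1* was free of *Acta2* reads.

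All 11 chondrocyte markers fell in the mutant under both treatments, to sums of 28940 to 34010 CPM from 45710 to 49860 CPM with vehicle and to 18530 to 20900 CPM from 33960 to 39910 CPM with TNFα. All 6 macrophage markers rose under both, and 3 and 2 of 4 endothelial markers rose with vehicle and TNFα. Macrophage markers summed to 61.5 to 68.4 and 114 to 132 CPM with vehicle and to 71.8 to 86.9 and 146 to 171 CPM with TNFα, in Wild type and mutant cells. Endothelial markers summed to 1.22 to 2.56 and 3.94 to 6.33 CPM with vehicle and to 1.31 to 3.02 and 3.51 to 8.14 CPM with TNFα, in the same order. Fibroblast and perichondrial markers summed to 20100 to 22050 and 23860 to 25760 CPM with vehicle and to 20120 to 21980 and 24140 to 28650 CPM with TNFα, with 4 of 7 and 6 of 7 higher in the mutant and 1 of 7 lower in each. Schwann cell markers summed to 2.07 to 5.73 CPM and none of 3 passed between genotypes with edgeR, none at an unadjusted p under 0.05 and none with DESeq2. From vehicle to TNFα 2 of 3 rose in Wild type (1 with DESeq2) and 1 of 3 in the mutant. In each genotype 10 of 11 chondrocyte markers fell with TNFα. Of 6 macrophage markers 2 rose and 1 fell in Wild type, and 4 rose and 1 fell in the mutant. Of 7 fibroblast and perichondrial markers 4 and 3 rose, and 1 fell in each. No endothelial marker passed. The part of these cell types in the muscle genes' differences was not tested.

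Across the 16 libraries the 6 muscle genes with a mean of at least 1 CPM (*Myh3*, *Myh8*, *Acta1*, *Actc1*, *Tnnt3* and *Des*) varied together to different degrees. On log2(CPM + 0.5), *Myh3* and *Myh8* had the highest Pearson r of the 15 pairs, 0.898, and *Myh3* and *Acta1* the lowest, 0.518. All points share the groups, the libraries and the scaling, so these are descriptions. Of 13431 genes with a mean of at least 1 CPM, the 10 outside the muscle lists with the highest r to the mean of the 6 were *Ada* (0.94), *Smap2* (0.928), *Frmd4a* (0.927), *Nnmt* (0.923), *Sfrp2* (0.92), *Dennd2b* (0.919), *Enc1* (0.918), *Mrc1* (0.915), *Mmp19* (0.911) and *Aoc3* (0.905). *Ada* encodes adenosine deaminase, *Sfrp2* a secreted WNT antagonist and *Mrc1* the mannose receptor of macrophages. By deviations from the group means, which leave out what genotype and treatment share, r for *Ada* was 0.766 and it alone stayed among the 10 highest. The highest was then *Zfp37*, at 0.834.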

How the data were processed

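RNA from 16 cultures was sequenced in 1 pool of paired-end 75-base reads. Per the labels, the authors aligned reads to GRCm38 with HISAT2 and made counts per gene with HTSeq; the study's methods name a later build, and the strand setting of the counting is not given in the sources used here. 8 of the 10 members overlap an annotated gene on the opposite strand (all but *Myod1* and *Myh3*), so reads of the partners may be mixed. The deposited files hold whole-number counts for 55414 genes and 5 rows naming no gene (8.81% to 12.1% of counts), which were left out. Symbols and positions came from GENCODE M39 (665 identifiers unmatched, 0.0182% of counts).

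Comparisons were made with edgeR 4.0.16 (R 4.3.3), with trimmed-mean scaling, at least 10 counts summed over the libraries compared, the robust quasi-likelihood test and Benjamini-Hochberg adjustment over all genes, at 0.05. Each of 4 comparisons used its own 8 libraries, and the interaction all 16. DESeq2 1.42.0, another scaling, no count filter, edgeR's stricter expression filter, a 2-fold cutoff (1 on the log2 scale), a replicate block, 1 fit of all 16 libraries and leaving out each library were the alternatives. The stricter filter left *Myod1* and *Ckm* untested in every comparison, *Myog* in some, and *Mybpc2* with TNFα in both genotypes. The canonical transcript length and leaving out both libraries numbered 4 were added after seeing the data. The tests were tried on simulated counts with the same spread for every gene and no change placed in the lowest genes. That setting does not cover the most variable or the lowest of the genes here. Intervals and floors (3 counts) cover counting error only, with no molecular identifiers. Every member is named, with *Notch2*, the 2 called genes of the largest absolute log2 change per wider muscle list and comparison, and the 10 genes most correlated with the members; *Mymk*, *Myom1* and *Myom2* outside this rule, the precursor genes and *Acta2* were chosen after their values were seen. Members and lists were chosen with earlier results of these data known.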

Additional observations from a re-analysis of the deposited data

Results flagged for a closer look

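In a group of 4 libraries 1 value can lie far from the other 3, and 5 of the 40 groups of the 10 muscle genes held such a value (Dixon's test at the 95% level). Chance flags about 1 in 20 groups. *Myod1* was at 0.0585 CPM in replicate 2 of the Notch2 mutant, TNF alpha group, against 0.468 to 0.552 CPM in the others. *Acta1* was at 14.1 CPM in replicate 4 of that group, against 6.67 to 7.08 CPM, and *Ckm* at 1.10 CPM in the same library, against 0.0662 to 0.175 CPM. That library is the shallowest of the 16, and its *Ckm* value rests on 4 counts. *Tnnt3* was at 5.10 CPM in replicate 1 of the Notch2 mutant, Vehicle group, against 3.42 to 3.64 CPM. *Des* was at 2.85 CPM in replicate 2 of the Wild type, TNF alpha group, against 2.14 to 2.21 CPM.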

How the results depend on the processing

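With a 2-fold cutoff the members called were 2 between genotypes with vehicle and 1 with TNFα in the mutant, and the genes called over all were 244 and 272 between genotypes (vehicle, TNFα) and 2279 and 2720 with TNFα (Wild type, mutant). In 1 fit of all 16 libraries 3 members were called between genotypes with vehicle. The interaction called 206 genes with DESeq2, 266 with no count filter, and 51 to 156 when 1 library was left out, where edgeR called 101. Deviations of same-numbered libraries from their group means were at most weakly correlated (-0.19 to 0.142), which cannot settle whether the numbers pair them. With a replicate block *Acta1* passed between genotypes with TNFα (log2 difference 0.69, adjusted p = 0.00295) and *Tnnt3* with TNFα in the mutant (-0.52, 0.043), *Myh8* did not pass there (-0.43, 0.0684), and uncalled values changed sign for *Myog* with TNFα in Wild type (-0.011), *Ckm* in the mutant (0.064) and the interactions of *Myog* (0.11), *Myh8* (0.051) and *Acta1* (0.076). DESeq2 turned the interactions of *Myog* (0.023), *Myh8* (0.007), *Acta1* (0.15) and *Tnnt3* (0.027). Without both libraries numbered 4 the signs turned for *Myod1* between genotypes with vehicle (-0.62), *Ckm* with TNFα (-0.58), *Myog* with TNFα in Wild type (-0.41) and the interactions of *Myog* (0.44), *Myh8* (0.038), *Acta1* (0.37), *Actc1* (0.21) and *Tnnt3* (0.027). Leaving out 1 library turned other uncalled log2 values: interactions ranged from -0.18 to 0.34 for *Acta1*, -0.32 to 0.17 for *Actc1*, -0.31 to 0.057 for *Des*, -0.26 to 0.23 for *Myh8*, -0.34 to 0.48 for *Myog* and -0.23 to 0.21 for *Tnnt3*. Between genotypes *Myod1* with vehicle ranged from -0.40 to 0.43 and *Ckm* with TNFα from -0.38 to 1.02. With TNFα in the mutant the ranges were -1.03 to 0.044 (*Ckm*), -0.091 to 0.27 (*Myh3*), -0.69 to 0.061 (*Myod1*), -0.28 to 0.27 (*Myog*) and -0.69 to 0.065 (*Tnnt1*), and in Wild type -0.54 to 0.006 (*Myh3*) and -0.46 to 0.34 (*Myog*). The cause was not tested. Depth limits *Myod1*, *Myog* and *Ckm* most, which had 0 to 32 counts per library.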
